A study of Mus musculus with 7 samples.

Results

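Of 1926 differentially methylated regions (DMRs) between airway macrophages (AMs) of Scnn1b-Tg mice and of WT littermates, 211 lie at a gene promoter, that is within 3 kb of the transcription start site (TSS) of the gene to which the authors' annotation assigns them. Among the DMRs they were selected by that annotation class alone. Each DMR had itself been called by the authors from a difference in level between the genotypes, so the differences below are selected ones. The 211 regions belong to 202 genes. In 106 of them the methylation level was lower in Scnn1b-Tg than in WT AMs (hypomethylated, 50.2%), and in 105 it was higher (hypermethylated), whereas 72.9% of all DMRs of the table were hypomethylated and 27.1% hypermethylated (75.7% and 24.3% of those outside promoters). The promoter DMRs held genes of inflammatory signalling (Il1a, Tank, Tnip1, Tnip3, Csf3r, C5ar2, Stat2), transcription factors (Mef2c, Meis1, Hoxa5), Wnt receptors (Fzd1, Fzd8), imprinted loci (Airn, Peg3, Plagl1) and X-linked genes (Eif1ax, Usp11).

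Scnn1b-Tg mice overexpress the beta subunit of the epithelial sodium channel under the club cell secretory protein promoter, hence in airway epithelium and not in the macrophages studied, and develop airway mucus obstruction. AMs, defined as CD45+ Siglec-F+ CD11c+ cells, were sorted from the lungs of 6-week-old female mice on a C57BL/6 background, with 3 Scnn1b-Tg and 4 WT samples, and their DNA was analysed by tagmentation-based whole genome bisulfite sequencing. Each methylation level below is the authors' mean for 1 genotype over the CpGs of a region, a fraction from 0 (no read methylated) to 1. The table gives no level and no read depth for a single sample, so the spread between samples is unknown, no interval can be put on a level, and no test between the genotypes was made here. The columns of levels carry no genotype name, and were assigned from the study's description, and every direction below rests on that assignment.

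In mammals a methyl group is carried mostly by cytosines followed by guanine (CpGs). Promoters of widely expressed genes often lie in CpG islands, stretches rich in CpGs that are mostly unmethylated, while CpG-poor promoters, many of them of tissue-specific genes, vary in methylation with cell type. Methylated promoters tend to be inactive. Exceptions to the unmethylated state of islands are imprinted genes, in which the copy from 1 parent is methylated, and in females the inactive X chromosome. Intermediate levels can therefore stand for methylation of 1 of both copies, or for a mixture of cells.

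The following 11 sequences show what these regions look like. Shown first are regions of immune genes with less methylation in Scnn1b-Tg AMs, then regions of Csf3r, Mef2c and Sbno2 with more. Last come CpG-rich regions on the X chromosome and at an imprinted locus. Bases are those of the reference GRCm38 (the assembly behind mm10), plus strand, with CpGs in capitals, and 1 base was added at the end to complete the last CpG.

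Il1a, chr2:129308461-129308662: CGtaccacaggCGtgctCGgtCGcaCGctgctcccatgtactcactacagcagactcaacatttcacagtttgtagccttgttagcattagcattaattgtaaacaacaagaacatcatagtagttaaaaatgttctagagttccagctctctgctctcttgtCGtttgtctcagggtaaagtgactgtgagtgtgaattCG
Tnip3, chr6:65590470-65590702: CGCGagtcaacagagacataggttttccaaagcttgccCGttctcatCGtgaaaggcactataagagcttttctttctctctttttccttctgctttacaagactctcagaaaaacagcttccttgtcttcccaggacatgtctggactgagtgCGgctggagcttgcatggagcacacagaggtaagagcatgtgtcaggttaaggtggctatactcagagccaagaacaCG
S1pr4, chr10:81499575-81499673: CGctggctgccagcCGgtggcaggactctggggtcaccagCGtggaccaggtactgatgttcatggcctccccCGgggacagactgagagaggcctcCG
Itgax, chr7:128131582-128131686: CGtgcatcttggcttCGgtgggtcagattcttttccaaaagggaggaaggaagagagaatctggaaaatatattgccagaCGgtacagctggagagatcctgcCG
Csf3r, chr4:126024140-126024421: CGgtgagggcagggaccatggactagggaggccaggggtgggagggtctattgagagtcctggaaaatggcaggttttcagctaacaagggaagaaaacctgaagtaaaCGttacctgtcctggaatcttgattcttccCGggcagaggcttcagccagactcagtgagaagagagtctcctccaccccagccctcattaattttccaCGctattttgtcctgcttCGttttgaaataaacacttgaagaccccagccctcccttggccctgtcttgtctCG
Mef2c, chr13:83573420-83573588: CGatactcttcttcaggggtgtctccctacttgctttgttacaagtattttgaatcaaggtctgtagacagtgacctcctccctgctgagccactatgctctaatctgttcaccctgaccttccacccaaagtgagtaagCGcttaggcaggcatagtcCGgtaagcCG
Sbno2, chr10:80101166-80101220: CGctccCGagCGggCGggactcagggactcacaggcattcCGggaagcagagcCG
Eif1ax, chrX:159372190-159372483: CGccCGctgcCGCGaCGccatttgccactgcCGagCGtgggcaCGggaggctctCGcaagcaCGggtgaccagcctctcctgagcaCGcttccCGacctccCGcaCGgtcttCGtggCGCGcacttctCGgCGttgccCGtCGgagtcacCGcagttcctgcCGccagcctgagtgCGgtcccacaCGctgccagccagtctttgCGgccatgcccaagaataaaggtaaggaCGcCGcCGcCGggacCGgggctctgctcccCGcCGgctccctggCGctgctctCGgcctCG
Usp11, chrX:20703881-20704040: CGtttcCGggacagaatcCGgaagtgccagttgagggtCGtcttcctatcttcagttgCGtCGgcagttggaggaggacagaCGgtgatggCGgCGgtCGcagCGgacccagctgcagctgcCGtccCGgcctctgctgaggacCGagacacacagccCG
Rhox4e, chrX:37557453-37557566: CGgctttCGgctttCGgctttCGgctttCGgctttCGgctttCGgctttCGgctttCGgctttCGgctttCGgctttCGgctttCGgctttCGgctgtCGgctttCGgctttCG
Airn, chr17:12741733-12741827: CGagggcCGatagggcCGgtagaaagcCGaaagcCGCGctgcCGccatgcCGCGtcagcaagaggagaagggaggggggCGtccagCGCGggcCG

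The Il1a region lies in an intron of the gene and has 5 of its 7 CpGs close together at its start. It lies 469 bp downstream of the TSS of the authors' annotation, and 1311 bp from the nearest TSS of GENCODE M21. The Tnip3 and S1pr4 regions overlap coding exons, whereas the Itgax region is intronic. The Csf3r region ends 239 bp upstream of the TSS and spreads its 6 CpGs over 282 bases, while the Eif1ax region spans the TSS and holds 36 CpGs in 294 bases. The Rhox4e region is an array of the unit CGgcttt, found 15 times in the printed stretch. The reference holds 17 CpGs there against 12 in the table, and as Rhox4 is a family of near-identical copies, its value is uncertain.

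Methylation levels at hypomethylated promoter DMRs had a median of 0.451 in Scnn1b-Tg, against 0.703 in WT. Their levels ranged between 0.144 and 0.743 in Scnn1b-Tg and between 0.318 and 0.933 in WT. At hypermethylated promoter DMRs the medians were 0.530 in Scnn1b-Tg and 0.341 in WT, with ranges of 0.190 to 0.945 in Scnn1b-Tg and 0.0316 to 0.775 in WT. DMRs outside the promoter class were more methylated in both genotypes, though 209 of these 1715 regions lay within 3 kb of a GENCODE M21 TSS. Their medians were 0.576 in Scnn1b-Tg and 0.832 in WT where hypomethylated, and 0.732 in Scnn1b-Tg and 0.513 in WT where hypermethylated. The WT level was at least 0.8 in 32.1% of hypomethylated promoter DMRs and in 61.5% of hypomethylated DMRs elsewhere. In 42 promoter DMRs the level was below 0.5 in Scnn1b-Tg AMs and at or above it in WT AMs, and in 46 the reverse held.

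**Figure D1:**
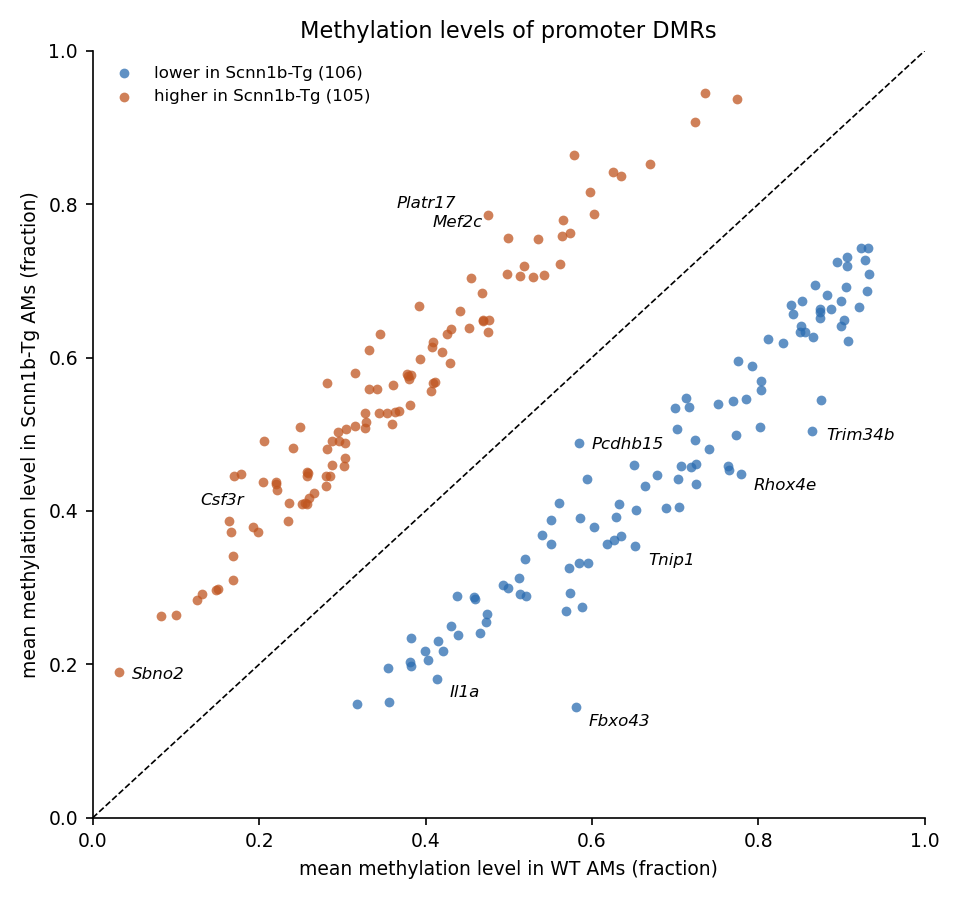
Mean methylation level in Scnn1b-Tg AMs (y axis, fraction) against that in WT AMs (x axis, fraction) for the 211 promoter DMRs, 1 point per region, with the line of equal levels dashed. The 106 hypomethylated regions (blue) lie below the line down to Fbxo43 at 0.144 in Scnn1b-Tg AMs, and the 105 hypermethylated regions (orange) lie above it, with Sbno2 lowest in WT AMs at 0.0316.

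The difference between the genotypes was modest at most promoter DMRs. Its size was limited from below, since the study states a minimum difference of 0.1 for a DMR. The median size of the difference was 0.218 at hypomethylated and 0.190 at hypermethylated promoter DMRs, compared with 0.240 and 0.223 at DMRs of the same direction elsewhere. It reached 0.3 in 8 promoter DMRs, 7 of them hypomethylated. At 0.2 or more there were 67 hypomethylated and 42 hypermethylated promoter DMRs, a hypomethylated share of 61.5%, so the near-even split included more small gains than small losses. Outside promoters, 1094 hypomethylated and 302 hypermethylated DMRs reached 0.2. Pcdhb15, a clustered protocadherin, was the single member under 0.1, and so below the stated minimum (0.489 in Scnn1b-Tg and 0.584 in WT). The next smallest were Rnf225 (0.311 in Scnn1b-Tg and 0.169 in WT) and Rnf113a1 (0.235 in Scnn1b-Tg and 0.382 in WT).

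The share of hypomethylated regions differed along the distance to the TSS. Within 1 kb there were 104 promoter DMRs, 46 hypomethylated and 58 hypermethylated (44.2% hypomethylated). Between 1 and 2 kb there were 31 hypomethylated and 28 hypermethylated regions (52.5%), and between 2 and 3 kb 29 hypomethylated and 19 hypermethylated regions (60.4%). Beyond the promoter window the share was 66.7% of 75 regions at 3 to 5 kb, 67.6% of 142 at 5 to 10 kb, and 82.6% of 425 beyond 200 kb. The WT level over both directions pooled increased in the same order, with a median of 0.418 within 1 kb, 0.530 at 1 to 2 kb and 0.627 at 2 to 3 kb. As WT levels were higher at hypomethylated than at hypermethylated regions, this increase is not independent of the share. Regions downstream of the TSS were most numerous (59 hypomethylated and 52 hypermethylated), followed by upstream regions (39 and 45) and regions spanning the TSS (8 and 8).

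**Figure D2:**
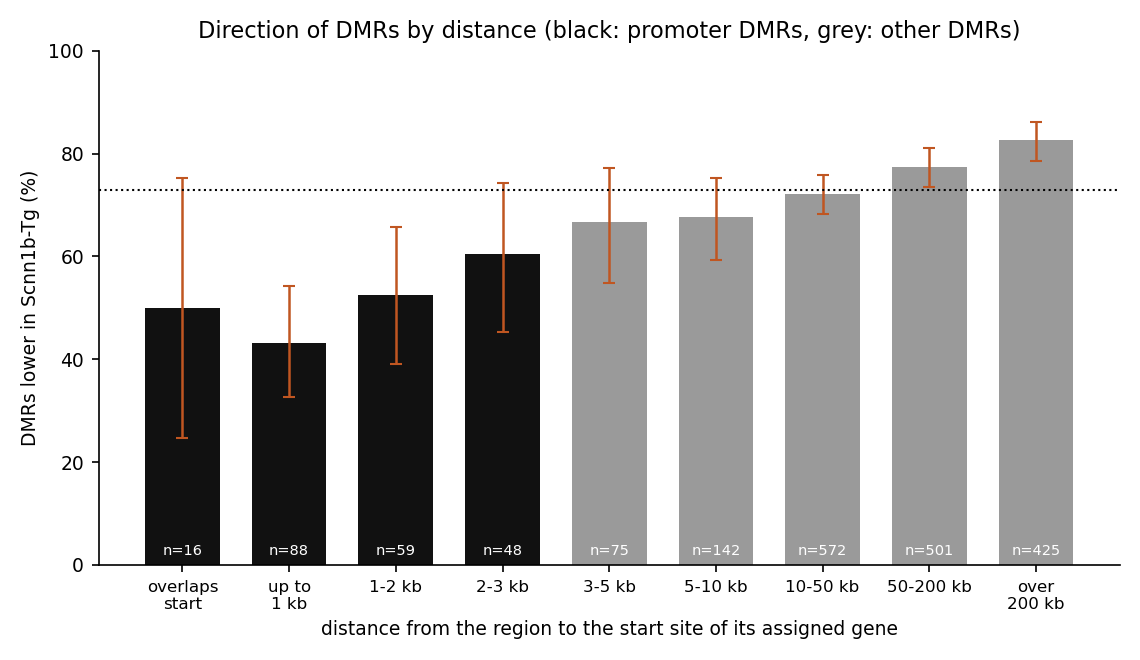
Share of DMRs with a lower level in Scnn1b-Tg than in WT AMs (y axis, percent) by distance to the TSS of the assigned gene (x axis), with promoter DMRs in black and other DMRs in grey. Orange bars are exact 95% binomial intervals, which cover counting error only, and the dotted line is the 72.9% of all DMRs. The black bars stand between 43.2% and 60.4%, and the grey bars between 66.7% and 82.6%.

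CpG density, the number of CpGs of the table per 100 bp of the region, was higher at hypermethylated promoter DMRs (median 4.89, interquartile range 3.15 to 7.35) than at hypomethylated ones (median 3.45, interquartile range 2.63 to 5.67). Within 1 kb the medians were 5.62 for hypermethylated and 4.54 for hypomethylated regions, at 1 to 2 kb 4.41 and 3.23, and at 2 to 3 kb 3.68 and 3.39. The distributions overlapped in every bin. At a difference of at least 0.2 the medians differed by 0.33, with 3.26 for hypermethylated and 2.93 for hypomethylated regions. Among the 64 regions with 10 or more CpGs the order turned round, with a median of 5.89 for hypermethylated and 6.06 for hypomethylated regions. DMRs elsewhere were sparser, with 3.45 CpGs per 100 bp where hypermethylated and 2.86 where hypomethylated. When promoter DMRs were divided by density into 4 groups of 51 to 54 regions, 58.5% and 62.7% were hypomethylated in the sparser groups and 40.7% and 39.6% in the denser groups.

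**Figure D3:**
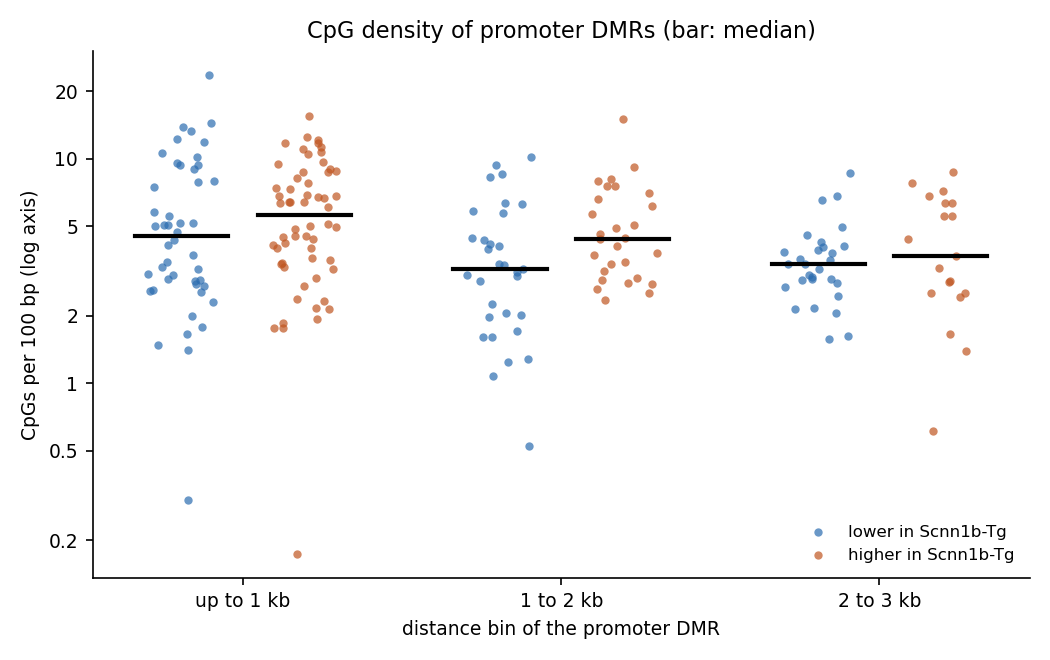
CpG density of each promoter DMR (y axis, CpGs per 100 bp, log axis) by distance bin (x axis) and direction, with bars at the medians. Hypermethylated regions (orange) have the higher median in each bin, 5.62 against 4.54 within 1 kb, and both directions overlap widely.

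The extremes of density were not of 1 direction. Prrt4, with 14 CpGs in 59 bp (23.7 per 100 bp), reached 0.657 in Scnn1b-Tg and 0.841 in WT. G530011O06Rik on the X chromosome was sparsest, with 4 CpGs of the table in 2302 bp (0.174 per 100 bp). The reference holds 38 CpGs there, so most of them carry no value. Over all promoter DMRs the CpG number equals that of the reference in 199 and is lower in 12. The largest regions by CpG number were hypermethylated Insl3 (74 CpGs), Nsd1 (45), Mir671 (36) and Fam217a (35), and hypomethylated Cdkn1c (44), Eif1ax (36), Gnas (30) and a region each of Slc38a4 and Ptgir (28).

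In the reference sequence, promoter DMRs were richer in CpG islands and poorer in repeats than other DMRs of the same direction. A 500-bp window centred on the region met a CpG island rule (GC content of at least 50% and observed over expected CpGs of at least 0.6) in 24 hypermethylated (22.9%) and 13 hypomethylated promoter DMRs (12.3%), compared with 7.43% and 3.70% of hypermethylated and hypomethylated DMRs elsewhere. Repeats covered at least 50% of the region in 20.8% of hypomethylated promoter DMRs, against 54.3% of hypomethylated DMRs elsewhere. Where hypermethylated, the shares were 12.4% at promoters and 35.3% elsewhere. The 35 repeat-rich promoter regions, such as Card14, Mrap2, Usp7, Stat2 and Rpl22, comprised 22 hypomethylated and 13 hypermethylated ones. Over both directions pooled, their median levels were 0.659 in Scnn1b-Tg and 0.736 in WT, which depend on that mix. Exons of the GENCODE M21 annotation overlapped 88 promoter DMRs, coding sequence 55 of them. A further 90 lay within introns and 33 outside genes.

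Letter matches to motifs of transcription factors were counted on both strands in 300-bp windows centred on the regions. The GC box of SP and KLF factors (GGGCGG) occurred in 29.5% of hypermethylated and 20.8% of hypomethylated promoter DMRs. It occurred in 35.7% of 32851 RefSeq promoter windows of the same length (GRCm38). Those run from 250 bases before to 50 after a TSS, and so lie closer to it than many of the DMR windows. The core bound by ETS factors (CCGGAAG) occurred in 7.62% and 8.49%, and in 8.86% of all promoters. For PU.1, the ETS factor that governs macrophage development, GAGGAAG was found in 11.4% and 11.3%, and in 13.6% of all promoters. AP-1 (TGANTCA) matched 4.76% and 10.4%, and 7.81% of all promoters. The E-box CACGTG matched 6.67% and 5.66% (7.15% of all), and the letters TGCCGC of the imprinting factor ZFP57 matched 15.2% and 7.55% (11.6% of all). The cAMP response element TGACGTCA was found in none of the promoter DMR windows, against 1.79% of all promoters. In windows of hypermethylated and hypomethylated DMRs elsewhere, the GC box matched 16.3% and 7.94% and the ETS core 4.56% and 1.77%. The other shares there were 13.4% and 8.71% for PU.1, 8.39% and 8.55% for AP-1, and 3.12% and 6.32% for the E-box. ZFP57 letters matched 9.59% and 6.55% there, and the cAMP response element 0.480% and 0.539%. These are matches of letters, and motifs were allowed to overlap.

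The promoters themselves, read from RefSeq for 147 of the 202 genes as 250 bases before to 50 after each TSS, met the GC and CpG criteria in 51.4% of genes with a hypomethylated region and 50.7% of those with a hypermethylated region, against 36.0% of all 27025 genes. In 22 promoter DMRs, 9 hypomethylated and 13 hypermethylated, the region overlapped that core window of its own gene, among them Igf1, Tank, Hcar1, Eif1ax and Usp11 (hypomethylated) and Csf3r, C5ar2, Mef2c, Sbno2 and Mest (hypermethylated).

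The largest loss of methylation was at Fbxo43, an inhibitor of the anaphase-promoting complex in germ cells, with 0.144 in Scnn1b-Tg and 0.581 in WT over 4 CpGs of a coding exon (chr15:36162604-36162975). Trim34b, of the antiviral TRIM family, had 0.504 in Scnn1b-Tg and 0.865 in WT. Rhox4e, a homeobox gene of the reproductive tract, had 0.449 in Scnn1b-Tg and 0.780 in WT. Hcrt, which encodes the orexin neuropeptides, had 0.545 in Scnn1b-Tg and 0.875 in WT. Among the 15 largest losses were also Fsip1, Eps8l1, Kcnab1, Tnip1, Wdr45b, Mgme1 and Acvr1c, with differences between -0.28 and -0.31. Most of these regions were small, and Eps8l1 (11 CpGs), Acvr1c (10) and Tmem181c-ps (10) were the exceptions beside Rhox4e.

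The largest gain was at Platr17, a pluripotency associated transcript, with 0.786 in Scnn1b-Tg and 0.475 in WT. GENCODE M21 places coding sequence of Platr17 in this region. Of the 14 reference CpGs of this region 7 carry a value. Lats2, a kinase of the Hippo pathway, had 0.631 in Scnn1b-Tg and 0.345 in WT. Barhl1, a homeobox gene of the nervous system, had 0.567 in Scnn1b-Tg and 0.281 in WT. Cdk17 had 0.864 in Scnn1b-Tg and 0.579 in WT in a region made up of repeats. The 15 largest gains also held Dlg2, Rcn3, Glb1l, Atrnl1, Plin2, Mrgprg and Fzd8, with differences of 0.24 to 0.28. Glb1l stood out by its 23 CpGs across the TSS and had 0.448 in Scnn1b-Tg and 0.178 in WT.

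Over the RefSeq annotation 196 of 49997 genes (0.392%) held a promoter DMR. The counts for gene lists below cannot be read against that share, since lists were drawn up with results of these data known. For the same reason, directions and differences in a list or family describe its named regions and are no evidence about the pathway or family. They stand beside 50.2% hypomethylated and 49.8% hypermethylated over all promoter DMRs, and most rest on few regions. Of 50 listed genes of NF-kB and TNF signalling, the pathway by which macrophages respond to microbial products and cytokines, 5 held a promoter DMR, 4 hypomethylated and 1 hypermethylated (50.2% hypomethylated over all promoter DMRs), with lower levels in Scnn1b-Tg AMs at Tnip1, Tnip3, Tank and Card14 and a higher level at Tnfrsf14. Tnip1 and Tnip3 bind the NF-kB inhibitor A20. Tnip1 had 0.354 in Scnn1b-Tg and 0.652 in WT in its intron 1203 bp from the TSS (chr11:54961529-54961737). Tnip3 had 0.255 in Scnn1b-Tg and 0.473 in WT, 72 bp from the TSS. Tank, an adaptor that joins TRAF proteins to the kinase TBK1, had 0.493 in Scnn1b-Tg and 0.724 in WT over 10 CpGs starting 30 bp from the TSS. Card14, a scaffold of NF-kB activation in keratinocytes, had 0.687 in Scnn1b-Tg and 0.930 in WT, and its region is covered by repeats. Tnfrsf14, the receptor HVEM, had 0.435 in Scnn1b-Tg and 0.220 in WT over 9 CpGs (chr4:154928342-154928674).

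Cytokines and growth factors with their receptors gave 4 hypomethylated and 3 hypermethylated regions among 46 listed genes. Il1a, an alarmin of the IL-1 family, had 0.181 in Scnn1b-Tg and 0.414 in WT, one of 7 promoter regions with a level under 0.2 in Scnn1b-Tg AMs. Igf1, an insulin-like growth factor made by macrophages among other cells, had 0.543 in Scnn1b-Tg and 0.770 in WT over 12 CpGs across the TSS. Il34, a ligand of the CSF1 receptor, had 0.651 in Scnn1b-Tg and 0.875 in WT, 2582 bp upstream of the TSS of the authors' annotation. The nearest GENCODE M21 TSS to that region is of Gm15894, 3240 bp away. In the other direction, Csf3r, the receptor for granulocyte colony-stimulating factor, had 0.437 in Scnn1b-Tg and 0.205 in WT. Igf1r, the receptor of IGF1, had 0.708 in Scnn1b-Tg and 0.498 in WT. Hence the region of the ligand Igf1 was less and that of its receptor gene more methylated in Scnn1b-Tg AMs. The region of Insl3, a hormone of the relaxin family, had 0.481 in Scnn1b-Tg and 0.281 in WT, and across its 1624 bp it spans the TSS of Insl3 and reaches exons of the neighbouring gene Jak3.

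On the list of complement components and receptors for complement, lipids and other chemoattractants (30 genes), 6 genes held 7 promoter DMRs, 6 of them hypomethylated and that of C5ar2 hypermethylated. Ptgir, the prostacyclin receptor, had 2 neighbouring regions in coding sequence, of 28 and 12 CpGs, with 0.625 and 0.674 in Scnn1b-Tg and 0.811 and 0.852 in WT. S1pr4, a sphingosine 1-phosphate receptor of leukocytes, had 0.230 in Scnn1b-Tg and 0.416 in WT. Hcar1, a lactate receptor, had 0.535 in Scnn1b-Tg and 0.717 in WT. Itgax, which encodes CD11c and thus a marker of the sort, had 0.459 in Scnn1b-Tg and 0.707 in WT, 2014 bp downstream of the TSS. C1qb, a chain of complement component C1q, had 0.619 in Scnn1b-Tg and 0.829 in WT. C5ar2, the second receptor for the complement fragment C5a, had 0.631 in Scnn1b-Tg and 0.426 in WT, 143 bp upstream (chr7:16242474-16242732).

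The STAT and JAK list (36 genes) gave 3 promoter DMRs. Stat2, which carries interferon signals to the nucleus, had 0.816 in Scnn1b-Tg and 0.598 in WT in a region of repeats. Sbno2, a transcriptional regulator downstream of IL-10, had 0.190 in Scnn1b-Tg and 0.0316 in WT at its TSS. This was the lowest WT level of all promoter DMRs, and the Scnn1b-Tg level was 6.01 times as high. Ptpn2, a phosphatase that dampens JAK and STAT signals, had 0.239 in Scnn1b-Tg and 0.439 in WT.

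**Figure D4:**
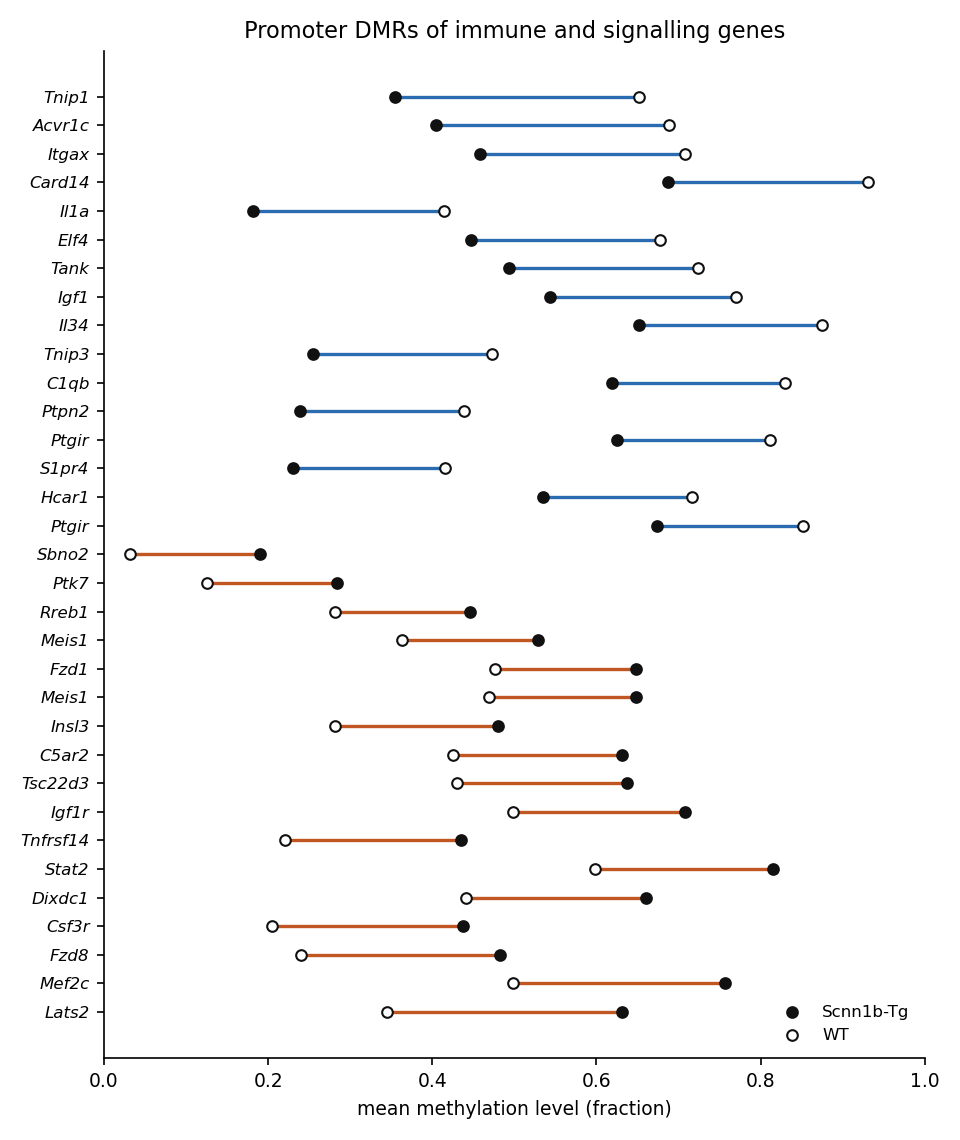
Mean methylation level (x axis, fraction) in Scnn1b-Tg (filled) and WT AMs (open) at the 33 promoter DMRs of 31 genes on 6 immune and signalling lists, 1 row per region ordered by difference. Blue lines mark the 16 regions with a lower and orange lines the 17 with a higher level in Scnn1b-Tg AMs, from Tnip1 at the top to Lats2 at the bottom.

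On the list of macrophage transcription factors (39 genes), 5 genes held 6 promoter DMRs, 5 hypermethylated and 1 hypomethylated, beside 49.8% hypermethylated over all promoter DMRs. Mef2c, a MADS-box factor of myeloid and muscle cells, had 0.756 in Scnn1b-Tg and 0.499 in WT, 31 bp upstream of a TSS. Meis1, a homeobox partner of HOX proteins, had 2 regions with 0.649 and 0.529 in Scnn1b-Tg and 0.469 and 0.363 in WT. The 2 Meis1 regions lie 120 bp apart and cannot be counted as separate observations. Rreb1, a zinc finger factor of RAS signalling, had 0.446 in Scnn1b-Tg and 0.281 in WT, and Tsc22d3, the glucocorticoid-induced leucine zipper, had 0.637 in Scnn1b-Tg and 0.431 in WT over 27 CpGs of an X-linked coding exon. Elf4, an ETS factor, was the exception, with 0.447 in Scnn1b-Tg and 0.678 in WT. On the homeobox and developmental list (40 genes), Barhl1, Hoxa5, Tfap2a and both Meis1 regions were hypermethylated and Rhox4e was hypomethylated. Hoxa5 had 0.446 in Scnn1b-Tg and 0.258 in WT over 22 CpGs.

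All 5 promoter DMRs of the Wnt list (31 genes, among them the Hippo kinases Lats1 and Lats2) were hypermethylated, beside 49.8% over all promoter DMRs. The receptors Fzd8 and Fzd1 had 0.482 and 0.649 in Scnn1b-Tg and 0.240 and 0.477 in WT. Dixdc1, which binds the Wnt effector Dishevelled, had 0.660 in Scnn1b-Tg and 0.441 in WT. Ptk7, a co-receptor of planar cell polarity, had 0.283 in Scnn1b-Tg and 0.125 in WT, and Lats2 is given above. The median difference of these regions was 0.22, beside 0.19 over all hypermethylated promoter DMRs. As the list was drawn up with results known, neither the shared direction nor this median is a finding about Wnt genes.

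Genes of phosphoinositide signalling (18 listed) gave 3 promoter DMRs. The region of Pik3cd, the leukocyte catalytic subunit of PI3K, had 0.417 in Scnn1b-Tg and 0.259 in WT, while Pik3c3, the kinase of autophagy, had 0.731 in Scnn1b-Tg and 0.906 in WT. The imprinted gene Inpp5f, a phosphoinositide phosphatase, had 0.410 in Scnn1b-Tg and 0.560 in WT. Thiol and redox genes (25 listed) were split. Slc7a11, the cystine importer that feeds glutathione synthesis, had 0.546 in Scnn1b-Tg and 0.785 in WT, and Txn1 (thioredoxin) had 0.507 in Scnn1b-Tg and 0.702 in WT. The cysteine-degrading enzymes showed the opposite order. Cdo1 had 0.297 in Scnn1b-Tg and 0.149 in WT, and the 2 regions of Mpst had 0.557 and 0.514 in Scnn1b-Tg and 0.407 and 0.359 in WT.

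Lipid genes (21 listed) had 4 hypomethylated regions (Cyp4x1, Dhrs3, Ptdss2 and Sec14l4) and 1 hypermethylated region at Plin2, which coats lipid droplets. Plin2 had 0.510 in Scnn1b-Tg and 0.250 in WT, 996 bp upstream (chr4:86671055-86671336). Matrix and adhesion genes (35 listed) had 3 hypomethylated regions, at Postn, Lum and Serpinb8, and 7 hypermethylated ones, at Adamts12, Adamtsl5, Bcam, Col11a2, Itgb4, Rcn3 and Spint1. Serpinb8, a protease inhibitor, had 0.151 in Scnn1b-Tg and 0.356 in WT. Col11a2, a collagen chain of cartilage, had 0.451 in Scnn1b-Tg and 0.257 in WT.

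Imprinted genes gave 12 promoter DMRs at 10 of 77 listed genes, 7 hypomethylated and 5 hypermethylated. Their WT levels lay near the middle of the scale, between 0.438 and 0.595 at the hypomethylated and between 0.354 and 0.411 at the hypermethylated regions. Cdkn1c, a maternally expressed inhibitor of cyclin-dependent kinases, had 0.290 in Scnn1b-Tg and 0.438 in WT over 44 CpGs. Airn, the paternally expressed RNA within Igf2r, had 0.441 in Scnn1b-Tg and 0.595 in WT. Inpp5f is given above. Gnas had 0.369 in Scnn1b-Tg and 0.540 in WT, and Zrsr1 0.337 in Scnn1b-Tg and 0.520 in WT. Slc38a4, an amino acid transporter, had 2 regions with 0.357 and 0.388 in Scnn1b-Tg and 0.551 in WT in both. The paternally expressed genes Peg3, Mest and Plagl1 were hypermethylated. Peg3 had 0.577 in Scnn1b-Tg and 0.383 in WT, Mest had 0.528 in Scnn1b-Tg and 0.354 in WT, and the 2 Plagl1 regions had 0.567 and 0.598 in Scnn1b-Tg and 0.408 and 0.393 in WT. Peg13 had 0.569 in Scnn1b-Tg and 0.411 in WT.

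Of the 211 promoter DMRs 22 were X-linked (10.4%), compared with 7.70% of DMRs elsewhere. Of these, 14 were hypomethylated and 8 hypermethylated (63.6% hypomethylated, against 81.1% of X-linked DMRs elsewhere). A CpG island window was met at 11 of the 22, and 16 lay within 1 kb of the TSS. At Eif1ax, a translation initiation factor, the level was 0.250 in Scnn1b-Tg and 0.431 in WT, at Usp11, a deubiquitinase, 0.217 in Scnn1b-Tg and 0.400 in WT, and at Morf4l2 0.218 in Scnn1b-Tg and 0.421 in WT. Mospd1, Gm1720 and C430049B03Rik also had WT levels under 0.5. Slc25a5, a mitochondrial ADP/ATP carrier, had 0.432 in Scnn1b-Tg and 0.280 in WT. Msl3 had 2 regions with 0.459 and 0.445 in Scnn1b-Tg and 0.302 and 0.285 in WT, and Cask had 0.411 in Scnn1b-Tg and 0.236 in WT. The X-linked regions thus differed in both directions between groups of females. With a difference of at least 0.2, 7 of the 22 were left, 6 of them hypomethylated, beside 61.5% over all promoter DMRs at that difference.

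**Figure D5:**
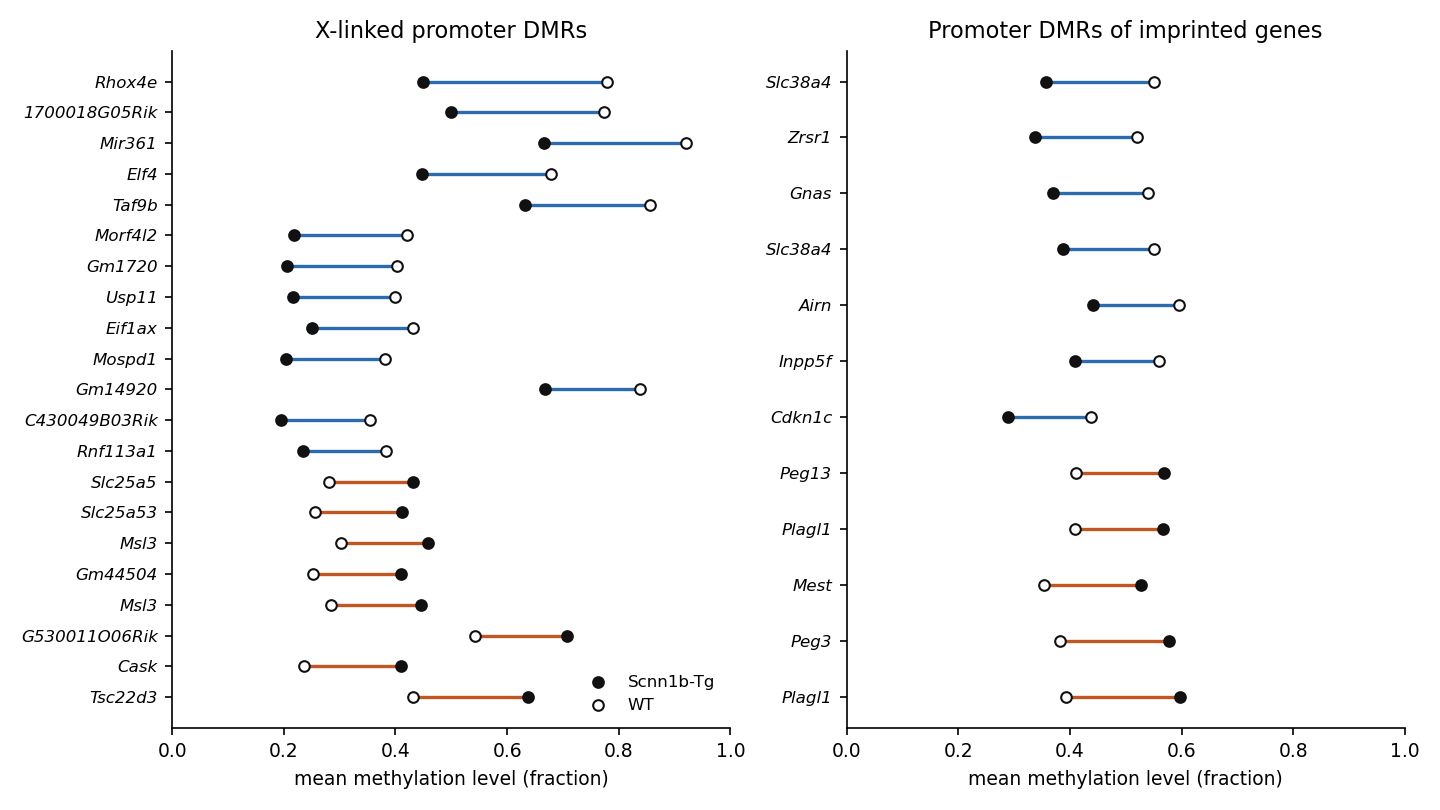
Mean methylation level (x axis, fraction) in Scnn1b-Tg (filled) and WT AMs (open) at 21 of the 22 X-linked promoter DMRs (left) and the 12 promoter DMRs of imprinted genes (right), 1 row per region. Blue lines mark regions with a lower level in Scnn1b-Tg AMs (13 and 7) and orange lines those with a higher level (8 and 5).

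Among gene families, 7 promoter DMRs were assigned to microRNA genes, of which Mir361, Mir1188, Mir6407, Mir7039 and Mir7658 were hypomethylated and Mir26b and Mir671 hypermethylated. All 7 regions overlap a longer gene. Mir671 had 0.373 in Scnn1b-Tg and 0.166 in WT over 36 CpGs that reach into exons of Chpf2, and Mir26b had 0.755 in Scnn1b-Tg and 0.536 in WT within Ctdsp1. Mir1188, within the imprinted RNA gene Rian, had 0.265 in Scnn1b-Tg and 0.474 in WT over 19 CpGs. Genes with symbols starting with Usp, Rnf, Wwp, Fbxo or Trim (256 in RefSeq), a part of the ubiquitin system, had 7 promoter DMRs. Of these 6 were hypomethylated (Fbxo43, Trim34b, Rnf113a1, Usp7, Usp11 and Wwp2) and that of Rnf225 was hypermethylated, beside 50.2% hypomethylated over all promoter DMRs. Solute carriers had 4 hypomethylated regions (2 of Slc38a4, Slc7a11 and Slc28a3) and 2 hypermethylated ones (Slc25a5 and Slc25a53). Of 5 promoter DMRs at olfactory and vomeronasal receptor genes (2073 in RefSeq by symbol) 4 were hypomethylated. Zinc finger genes were split into 3 hypomethylated and 4 hypermethylated regions, with both Zfp532 regions hypermethylated. Gene models without a formal name (Rik, Gm and BC symbols) accounted for 26 regions, 15 hypomethylated and 11 hypermethylated.

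In 9 genes with 2 promoter DMRs each, both regions had the same direction. Ptgir and Slc38a4 were hypomethylated, and Meis1, Mpst, Msl3, Plagl1, Pnma1, 2200002D01Rik and Zfp532 hypermethylated. The gaps between them ranged from 56 to 2190 bp with a median of 183 bp. As the study smoothed methylation profiles along the genome, close neighbours may share information and cannot be counted as separate observations. Apart from these 9 pairs, promoter DMRs formed 10 pairs with another DMR within 20 kb, 6 of the same and 4 of opposite direction. Opposite pairs occurred at G530011O06Rik, where the nearest DMR was hypomethylated, and around Eps8l1. The regions of Eps8l1 (hypomethylated, 0.405 in Scnn1b-Tg and 0.704 in WT) and D630041G03Rik (hypermethylated, 0.264 in Scnn1b-Tg and 0.0998 in WT) both overlap coding exons of Eps8l1 and differ in direction.

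The gene assigned to a promoter DMR is not always the gene whose start is nearest. In 25 of 211 regions (11.8%) the nearest TSS of GENCODE M21 belonged to another gene, older symbols being matched through RefSeq, and in 8 no TSS lay within 3 kb. The region of Rnf113a1 spans the TSS of Ndufa1, and that of Gm44504 the TSS of Ubl4a. The Mir7039 region (0.292 in Scnn1b-Tg and 0.514 in WT) lies within Smurf1, 444 bp from one of its TSSs, and the Ccdc94 region (0.572 in Scnn1b-Tg and 0.381 in WT, 32 CpGs) overlaps coding exons of the cytokine subunit gene Ebi3. The Sirt7 region overlaps an exon of Mafg.

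At the edge of the promoter window, the farthest members were Thtpa at 2986 bp (0.762 in Scnn1b-Tg and 0.574 in WT) and Fbf1 at 2953 bp (0.149 in Scnn1b-Tg and 0.318 in WT). Just outside lay Azin2 at 3001 bp (0.923 in Scnn1b-Tg and 0.739 in WT) and Vmn1r120 at 3003 bp (0.498 in Scnn1b-Tg and 0.809 in WT). Of 12 markers of AMs, Itgax alone had a promoter DMR. The same held for C1qb among 10 markers of monocytes and interstitial macrophages and Csf3r among 7 of granulocytes, and for none of 8 lymphocyte and 7 lung epithelial markers. The table lists DMRs alone, so the methylation of the other marker promoters is not known, and the part of other cells or of cell states in the levels was not tested.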

How the data were processed

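Genomic DNA of sorted AMs (3 Scnn1b-Tg and 4 WT samples; whether each sample is 1 mouse is not given in the labels) was sequenced after tagmentation and bisulfite treatment. The authors trimmed reads with Trimmomatic 0.36, aligned them to mm10 with BWA 0.7.8, marked duplicates with Picard, called CpG methylation with MethylDackel, smoothed profiles with bsseq and called DMRs with DSS. The study states minimums of 3 CpGs, 50 bp and a difference of 0.1 for a DMR. Smoothing shares information between nearby CpGs, and whether the deposited levels are smoothed values is not stated. The deposited table holds the mean methylation level per genotype as a fraction, the CpG number, length, assigned gene, annotation class and distance to the TSS. Its columns with the authors' difference and area score were not used. No source used here names the tool that annotated the DMRs. Depth per sample is unknown from the table.

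Differences were computed as the Scnn1b-Tg minus the WT fraction. Counts and medians over promoter DMRs were set beside those over other DMRs, without tests, since regions are not replicates. Sequences, islands, repeats (lower case of the RefSeq GRCm38.p6 sequence) and motifs were read with pysam and Python, and genes from GENCODE M21. Python 3.11.15, pandas 2.3.3 and pysam 0.24.0 were used, and functions were tested on simulated data. Of 478 listed genes 476 matched RefSeq symbols. The members and gene lists were chosen with earlier results of these data known. Genes were named if among the 15 largest differences or the 10 largest CpG numbers per direction, if spanning the TSS, X-linked, with 2 regions, on a list or family, extreme in level or density, or next to a difference of 0.1. A few more, chosen after their values were seen, illustrate gene assignment and repeats (Ccdc94, Sirt7, D630041G03Rik, Mrap2, Rpl22). Of the X-linked regions, 1 is counted but not reported here by itself.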

Additional observations from a re-analysis of the deposited data

How the results depend on the processing

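Of 122 values recomputed under 12 other choices, 113 stayed within a set tolerance, 8 moved and 1 turned round. The tolerance was 1.5 times for counts, the exact 95% binomial interval for shares and 1 SD over regions for medians, which is wide. The number of promoter DMRs, 211, was 104 within 1 kb, 109 at a difference of at least 0.2, 64 with at least 10 CpGs and 412 when regions within 3 kb of any GENCODE TSS were taken. The hypomethylated share, 50.2%, was 61.5% at a difference of at least 0.2 and 56.8% among the 412 regions, the latter within the tolerance. Over all DMRs, 1161 hypomethylated and 344 hypermethylated regions reached a difference of 0.2. The higher CpG density of hypermethylated regions, by 1.44 CpGs per 100 bp, was 0.33 at a difference of at least 0.2, within that tolerance, and turned round with at least 10 CpGs (-0.16). The 22 X-linked regions became 7 at a difference of at least 0.2, of which 85.7% were hypomethylated, and 8 with at least 10 CpGs. Choices added after seeing the data, leaving out regions made up of repeats or lacking some reference CpGs, moved none of these values beyond that tolerance. No paired analysis was possible because the table holds 1 mean per genotype and no value per sample. For the same reason leaving out samples could not be run. The depth of single samples is unknown from the table, and a coverage per genotype stated by the study does not give the depth behind each region.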
